A study of Mus musculus with 4 samples.

Results

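Of 44 listed genes of the amino acid stress response, 43 had a named probe set on the array and all 43 passed the filter on signal, out of 18193 named genes of which 11057 passed. They are a list of names, with no threshold on a measured value, of 10 ATF4 regulators, 13 serine, one-carbon and related enzymes, 8 amino acid transporters and 13 cytosolic tRNA synthetases. The missing gene was Pycr1 of the enzyme group. The methionyl-tRNA synthetase gene Mars was named Mars1 once names had been updated through gene IDs. Where a gene had several probe sets, it was represented by the one with the highest mean signal over the 4 arrays. RNA came from undifferentiated 3T3-MEFs, fibroblasts of mouse embryos kept in serial culture, collected once they had grown to confluence and hybridised to Affymetrix arrays. SMRTmRID cells (2 arrays) derive from mice whose corepressor SMRT is altered in the domains that bind nuclear receptors, and wild-type cells (2 arrays) from mice with the normal protein. The labels name no treatment and no further allele for either genotype. The arrays of a genotype are labelled technical replicates, so p-values measure the spread between technical repeats. How many embryos or lines stand behind each genotype is not given in the sources used here, so a difference between lines and a difference between genotypes cannot be told apart.

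ATF4 is a transcription factor whose mRNA is translated more efficiently when initiation factor eIF2 is phosphorylated, as happens when uncharged tRNA builds up or unfolded protein accumulates. It then activates genes that make amino acids, bring them into the cell and attach them to tRNA, together with regulators that feed back on translation and growth. Serine made from a glycolytic intermediate supplies one-carbon units through folate enzymes of the mitochondrion and the cytosol, and proliferating fibroblasts draw on this route for nucleotide synthesis. Aminoacyl-tRNA synthetases, each specific for an amino acid, charge the tRNAs that the ribosome reads.

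In all 4 groups most members were lower in SMRTmRID cells. At an adjusted p under 0.05 in limma's fit over all genes, 37 of the 43 genes fell, 3 rose and 3 missed the threshold. Of all tested genes 65.2% were called, 35.0% lower and 30.3% higher. Values of log2(signal + 16) were subtracted, wild-type from SMRTmRID, and this log2 difference had a median of -0.71 over the members and -0.045 over all tested genes. Differences of at least 1 on that scale were called in the downward direction for 13 members and 6.79% of all tested genes, and no member reached the upward threshold that 9.69% of all tested genes passed. The 2 SMRTmRID arrays lay below both wild-type arrays for 37 members and above both for 3, against 43.4% and 38.1% of all tested genes. These shares describe the members and were given no test of their own.

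The arrays were close within a genotype. Pearson's r over the tested genes was 0.991 between the SMRTmRID arrays and 0.991 between the wild-type arrays, and at most 0.861 between arrays of different genotype. The actin control's 3′ over 5′ signal lay between 1.19 and 1.20 on the 4 arrays. The number of arrays limits the precision. Of 10 fibroblast markers, Col1a1, Col1a2, Col3a1, Vim, Fn1 and Sparc had signals between 8559 and 15718, while surface markers differed widely between the cultures. Thy1 had signals of 3172 and 3184 in SMRTmRID cells, against 20.6 and 6.57 in wild-type cells. Pdgfra had signals of 4828 and 5090.5 in SMRTmRID cells, against 247 and 262 in wild-type cells. Pdgfrb had a log2 difference of 1.78. Of 21 markers of other cell types, 6 had a mean signal above the filter. The summed signal of 7 blood cell markers was 385 to 389 in SMRTmRID cells and 247 to 287 in wild-type cells. The summed signal of 4 endothelial markers was 70.9 to 77.1 in SMRTmRID cells and 64.2 to 68.6 in wild-type cells. The summed signal of 5 epithelial markers was 257 to 263 in SMRTmRID cells and 253 to 294 in wild-type cells. Within it, single markers moved in opposite directions. Krt19 had signals of 53.9 and 82.8 in SMRTmRID cells, against 6.11 and 4.98 in wild-type cells. Epcam was called lower (-0.37). Cdh1, under the filter, had 2.41 and 1.61 in SMRTmRID cells, against 55.9 and 42.3 in wild-type cells. Krt8 and Krt18 were also under the filter. The summed signal of 5 skeletal muscle markers was 58.7 to 72.1 in SMRTmRID cells and 229 to 365 in wild-type cells. In wild-type cells the muscle sum was mostly Acta1, the skeletal actin gene, which had signals of 8.63 and 4.35 in SMRTmRID cells, against 324 and 203 in wild-type cells. Ptprc, of the blood cell markers, and Pecam1, of the endothelial markers, reached at most 11.9 and 3.09. Of the 3 blood cell markers above the filter, Lyz2 (1.65) and Cd14 (0.41) were called higher and Emr1 (0.075) was not called. Lyz2 had signals of 105 and 95.3 in SMRTmRID cells, against 27.4 and 15.6 in wild-type cells. Thy1, Krt19 and Lyz2 were under the filter on both wild-type arrays and Acta1 on both SMRTmRID arrays. Each of them passed it through the other genotype only. The part of these markers in the results was not tested. Since the RNA is of whole cultures, fewer cells expressing a gene and less RNA per cell cannot be told apart.

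ATF4 binds, as a dimer with C/EBP proteins, composite elements with the core TGATGNAA, in which N is any base. RefSeq start sites of the assembly GRCm38.p6 gave windows from 250 bases before to 50 bases after the start for 34 of the 44 listed genes. TGATGNAA on either strand was found in the windows of 12 of these 34 genes, or 35.3%, against 4.51% of all 27025 genes with a window and 3.97% of all 32851 windows. The cyclic AMP element TGACGTCA, a palindrome, was found for 1 of 34 members, Ppp1r15a, against 2.03% of genes and 1.79% of windows. No member's window held both motifs. Many members are on the list because they are known ATF4 targets, so the share describes the choice of genes.

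The 30 bases around each match are shown for 10 of the 11 measured members that hold one, to let the sites be compared. Each is written 5′ to 3′ on the strand of the gene, with the motif or its reverse complement TTNCATCA in capitals. All 11 members fell, as did 17 of the 22 measured members whose windows lack a match. Over all tested genes with a window, 36.1% of those with a match were called lower and 35.7% of those without.
Trib3, chr2:152344028-152344057 (- strand): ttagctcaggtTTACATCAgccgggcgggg
Chac1, chr2:119351038-119351067 (+ strand): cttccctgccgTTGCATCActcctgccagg
Nupr1, chr7:126625562-126625591 (- strand): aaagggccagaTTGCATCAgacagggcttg
Asns, chr6:7693214-7693243 (- strand): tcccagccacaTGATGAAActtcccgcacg
Slc7a11, chr3:50443651-50443680 (- strand): cTGATGCAAacctggagaatTTGCATCAtc
Slc1a4, chr11:20332699-20332728 (- strand): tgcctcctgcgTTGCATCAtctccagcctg
Gars, chr6:55037960-55037989 (+ strand): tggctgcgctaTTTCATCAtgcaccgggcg
Iars, chr13:49682126-49682155 (+ strand): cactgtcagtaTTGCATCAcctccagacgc
Tars, chr15:11399655-11399684 (- strand): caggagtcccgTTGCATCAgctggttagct
Yars, chr4:129189895-129189924 (+ strand): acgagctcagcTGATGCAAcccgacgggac

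Slc7a11 holds both orientations within 1 stretch. Of the 10 stretches, 7 hold the motif with C at the open base, TGATGCAA or its reverse complement TTGCATCA. The 250 bases before the start are shown for Slc7a11 and Chac1, to give the sites their context. Both were called lower by more than 1 on the log2 scale in the main fit, and their matches lie wholly upstream. Slc7a11 passed the filter only through its wild-type arrays, and with log2(signal + 64) its log2 difference was -0.64.
Slc7a11, chr3:50443614-50443863 (- strand): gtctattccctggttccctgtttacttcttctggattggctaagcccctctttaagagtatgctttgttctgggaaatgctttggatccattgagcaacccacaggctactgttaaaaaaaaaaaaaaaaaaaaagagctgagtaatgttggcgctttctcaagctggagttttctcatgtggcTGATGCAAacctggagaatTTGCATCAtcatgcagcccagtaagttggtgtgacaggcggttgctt
Chac1, chr2:119350992-119351241 (+ strand): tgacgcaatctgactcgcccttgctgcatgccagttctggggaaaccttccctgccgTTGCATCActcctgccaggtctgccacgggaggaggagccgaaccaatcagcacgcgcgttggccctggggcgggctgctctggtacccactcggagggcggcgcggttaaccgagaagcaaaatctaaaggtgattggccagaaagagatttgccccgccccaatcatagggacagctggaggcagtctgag

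Among the ATF4 regulators 9 of 10 fell, and their median was -0.77 on the log2 scale. Atf4 itself had signals of 3109 and 3066 in SMRTmRID cells, against 4069 and 4049 in wild-type cells, a modest fall with a log2 difference of -0.39 ± 0.04 (SE) and an adjusted p of 3.40e-05 (limma). The SMRTmRID arrays lay below both wild-type arrays, and the 2 arrays of each genotype were nearly equal. Atf5, a related factor whose translation also rises under stress, fell further. Its signals were 2069 and 2209 in SMRTmRID cells, against 5057 and 5445 in wild-type cells, a log2 difference of -1.29 ± 0.05 (SE, adjusted p = 6.41e-08, limma). Ddit3, which encodes the stress factor CHOP, had a log2 difference of -0.44 ± 0.06 (SE), close to that of Atf4.

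The greatest change of the group was that of Trib3, which encodes a pseudokinase that binds ATF4 and restrains its activity. It had signals of 385 and 399 in SMRTmRID cells, against 1144 and 1233 in wild-type cells, a log2 difference of -1.56 ± 0.07 (SE, adjusted p = 5.84e-08, limma), so that the SMRTmRID mean was 0.330 of the wild-type mean. The other probe set of Trib3 lay at -1.03. With the mean over its probe sets Trib3 was at -1.30, close to the -1.29 of Atf5. Sesn2, a leucine sensor that holds back the growth kinase complex mTORC1 and is also a p53 target, had signals of 297 and 319.5 in SMRTmRID cells, against 738 and 754 in wild-type cells, with a log2 difference of -1.23 ± 0.07 (SE). Chac1, an enzyme that breaks down glutathione, whose window held the motif at position -193 from the start, had signals of 583 and 595 in SMRTmRID cells, against 1257 and 1163 in wild-type cells, with a log2 difference of -1.02 ± 0.06 (SE). The genotypes did not overlap in any of these genes. Smaller falls were seen for Nupr1, a small chromatin-associated stress protein (log2 difference -0.88), for Ppp1r15a, which directs the phosphatase that reverses eIF2 phosphorylation (-0.67), and for Eif4ebp1, which encodes an inhibitor of cap-dependent translation (-0.57). The exception was Cebpg, a dimerisation partner of ATF4, whose signals were 394 and 458 in SMRTmRID cells, against 421 and 371 in wild-type cells. Its genotypes overlapped, and its log2 difference of 0.10 ± 0.10 (SE) did not pass (adjusted p = 0.394, limma).

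**Figure D1:**
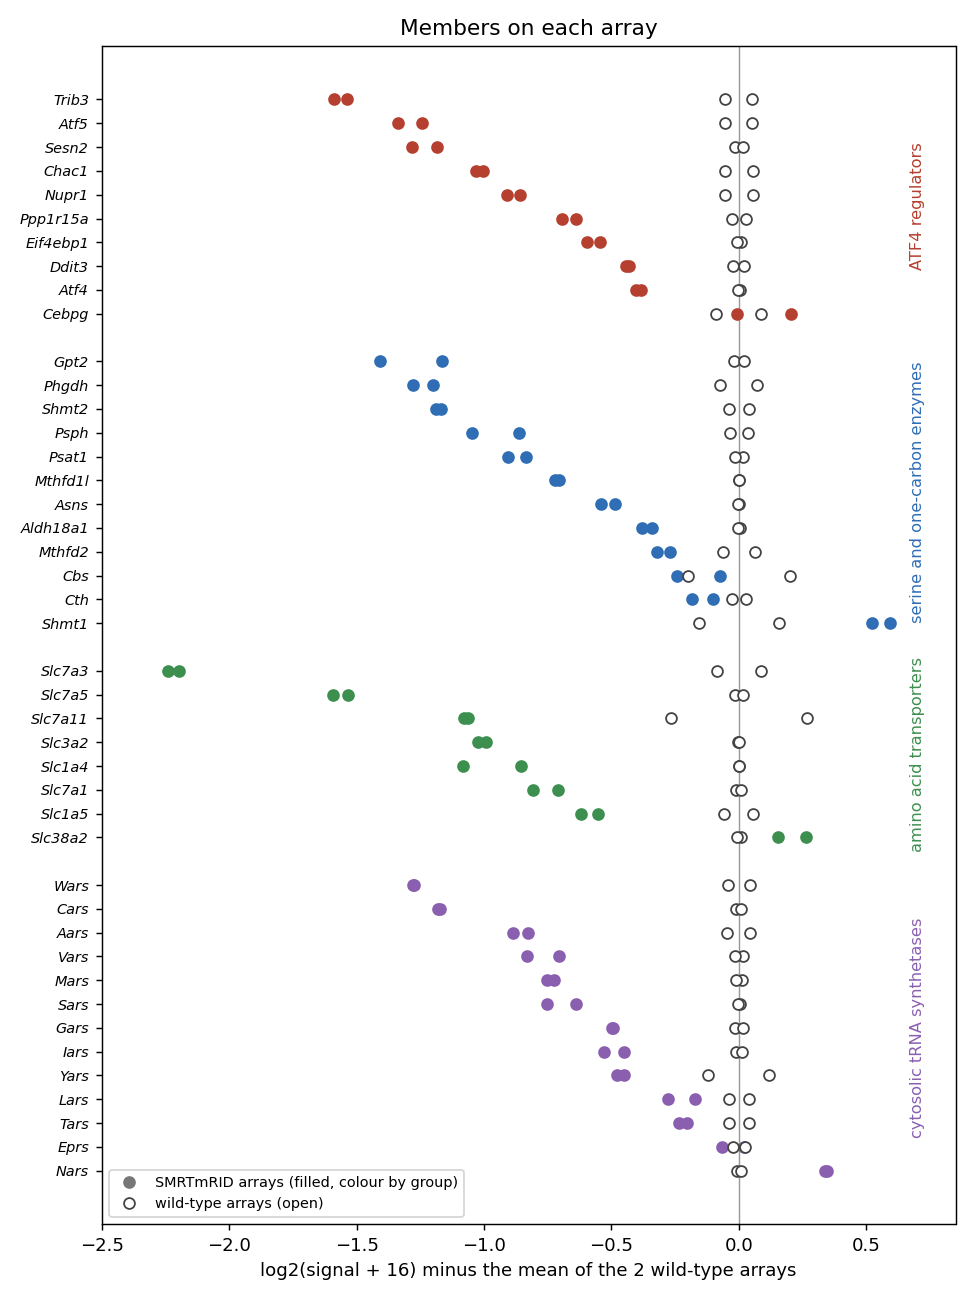
Each row is 1 member and each point 1 array, placed by its log2(signal + 16) minus the mean of the 2 wild-type arrays; filled points are SMRTmRID arrays and open points wild-type arrays, and rows are sorted within each group. The SMRTmRID points lie left of the wild-type points for 37 of 43 genes and right of them for Shmt1, Slc38a2 and Nars, while those of Cebpg, Cbs and Eprs overlap.

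Genes of serine synthesis fell along the whole route. Phgdh, whose enzyme takes the first step from glycolysis, had signals of 2709.6 and 2861 in SMRTmRID cells, against 6279 and 6943 in wild-type cells, a log2 difference of -1.24 ± 0.06 (SE, adjusted p = 1.15e-07, limma). Its 4 probe sets lay between -1.24 and -1.07. The next enzymes of the route, encoded by Psat1 and Psph, had log2 differences of -0.87 ± 0.05 (SE) and -0.96 ± 0.07 (SE). Of the 12 measured enzyme genes 10 fell, 1 rose and 1 missed the threshold, and the median was -0.61 on the log2 scale.

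The 3 listed genes of mitochondrial folate enzymes fell as well, unevenly. Shmt2, the mitochondrial enzyme that splits serine into glycine and a one-carbon unit, had signals of 1026 and 1012 in SMRTmRID cells, against 2266 and 2392 in wild-type cells, with a log2 difference of -1.18 ± 0.05 (SE, adjusted p = 7.47e-08, limma). Mthfd1l, which releases formate from the mitochondrion, had a log2 difference of -0.71 ± 0.06 (SE). Mthfd2, the dehydrogenase and cyclohydrolase between them and a common mark of ATF4 activity, changed less, at -0.30 ± 0.06 (SE, adjusted p = 0.00129, limma). Of the mitochondrial folate genes outside the list, Mthfd2l rose (0.99, adjusted p = 1.09e-05, limma) and Aldh1l2 did not pass (-0.078, adjusted p = 0.183). The cytosolic counterpart Shmt1 was called higher on the probe set used, with signals of 189 and 199 in SMRTmRID cells, against 143 and 112 in wild-type cells, with a log2 difference of 0.56 ± 0.14 (SE, adjusted p = 0.00651, limma). That call depended on the probe set. The mean over its probe sets gave 0.056 (adjusted p = 0.703), and the probe set with the lowest signals pointed the other way, with signals of 33.4 and 52.5 in SMRTmRID cells, against 79.3 and 82.6 in wild-type cells.

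Enzymes that make other amino acids were also lower. Gpt2, the mitochondrial alanine aminotransferase, had signals of 639 and 760.1 in SMRTmRID cells, against 1701 and 1746 in wild-type cells, a log2 difference of -1.29 ± 0.08 (SE, adjusted p = 5.72e-07, limma). Gpt2 and Phgdh differed by less than their SEs, and Phgdh had the greater fall with chromosome medians taken out and without SMRTmRID replicate 1 or wild-type replicate 1. Asns, the asparagine synthetase gene and a classical ATF4 target, with its TGATGAAA at position -23 from the start, had signals of 3305 and 3182 in SMRTmRID cells, against 4641 and 4626 in wild-type cells, with a smaller log2 difference of -0.51 ± 0.04 (SE). Aldh18a1, at the start of proline synthesis, had a log2 difference of -0.36 ± 0.04 (SE), and all 5 of its probe sets were lower. The transsulfuration genes, which lead from homocysteine to cysteine, showed little difference. Cth was called at the edge of the threshold, with a log2 difference of -0.14 ± 0.06 (SE, adjusted p = 0.0481, limma). Leaving out wild-type replicate 1 ended the call (adjusted p = 0.181), as did leaving out wild-type replicate 2 (0.0615) or SMRTmRID replicate 2 (0.227), and so did 4 of the other alternatives. Cbs had low signals of 48.7 and 56.6 in SMRTmRID cells, against 72.0 and 50.6 in wild-type cells, which overlapped, and a log2 difference of -0.16 ± 0.23 (SE) that did not pass (adjusted p = 0.570, limma).

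Amino acid transporters had the lowest median of the 4 groups, a log2 difference of -0.99, with 7 of 8 lower and 1 higher. Slc7a3, a carrier of arginine and lysine, changed most of all members. Its signals were 91.8 and 88.7 in SMRTmRID cells, against 449 and 509 in wild-type cells, a log2 difference of -2.22 ± 0.11 (SE, adjusted p = 1.80e-07, limma), so that the SMRTmRID mean was 0.188 of the wild-type mean. The related carrier Slc7a1 had a log2 difference of -0.76 ± 0.06 (SE) on the probe set used, and its 3 probe sets lay between -0.86 and -0.23. Slc7a5 and Slc3a2 encode the light and the heavy chain of the exchanger that imports leucine and other large neutral amino acids, and both fell. Slc7a5 had signals of 1206 and 1258 in SMRTmRID cells, against 3636 and 3715 in wild-type cells, a log2 difference of -1.56 ± 0.05 (SE, adjusted p = 8.88e-09, limma). Slc3a2, which also pairs with other light chains, had signals of 1966 and 2008 in SMRTmRID cells, against 4011 and 4019.8 in wild-type cells, a log2 difference of -1.01 ± 0.04 (SE).

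Slc7a11, the light chain of the cystine and glutamate exchanger, had signals of 33.2 and 32.6 in SMRTmRID cells, against 107 and 69.3 in wild-type cells, with a log2 difference of -1.07 ± 0.24 (SE, adjusted p = 0.00358, limma). Its arrays did not overlap, but its wild-type arrays were far apart and its SMRTmRID signals were under the filter of 35.1, so it passed the filter through its wild-type arrays. The size of its fall depended on the pseudocount, with log2 differences of -1.37 for a pseudocount of 1 and -0.64 for 64, and was -0.80 without wild-type replicate 1. It was the only member with a signal under the filter on any array. Slc1a4 and Slc1a5, which exchange alanine, serine, cysteine and, for Slc1a5, glutamine, had log2 differences of -0.97 ± 0.08 (SE) and -0.59 ± 0.08 (SE). Slc38a2, a sodium-coupled importer of small neutral amino acids that cells induce when amino acids run short, went the other way on the probe set used. It had signals of 5886 and 5454 in SMRTmRID cells, against 4937 and 4878 in wild-type cells, a log2 difference of 0.21 ± 0.05 (SE, adjusted p = 0.00485, limma). The mean over its 3 probe sets turned the direction, at -0.13 (adjusted p = 0.0920), and the call was lost without a variance trend (0.0731).

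Cytosolic tRNA synthetase genes fell in 11 of 13 cases, around a median of -0.50 on the log2 scale, and their changes spread widely. Wars, for tryptophan, had signals of 309 and 308 in SMRTmRID cells, against 746 and 792 in wild-type cells, a log2 difference of -1.28 ± 0.07 (SE, adjusted p = 3.47e-07, limma). Cars, for cysteine, had signals of 515 and 517 in SMRTmRID cells, against 1178 and 1194 in wild-type cells, a log2 difference of -1.18 ± 0.06 (SE, adjusted p = 1.48e-07, limma). In both the SMRTmRID arrays were almost equal and far below the wild-type arrays. Intermediate falls were those of Aars for alanine (log2 difference -0.86), Vars for valine (-0.77), Mars for methionine (-0.74), Sars for serine (-0.70), Gars for glycine (-0.50), Iars for isoleucine (-0.49) and Yars for tyrosine (-0.47).

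Lars for leucine and Tars for threonine fell least, with log2 differences of -0.23 ± 0.06 (SE, adjusted p = 0.00607, limma) and -0.22 ± 0.05 (SE, adjusted p = 0.00359, limma). Neither passed without a variance trend, where the adjusted p-values were 0.0669 for Lars and 0.0545 for Tars, and after quantile normalization Lars was at -0.13 and Tars at -0.10, which missed the threshold (adjusted p = 0.0596). Eprs, whose protein charges both glutamate and proline tRNAs, had overlapping signals of 1840.5 and 1955 in SMRTmRID cells, against 1897 and 1961 in wild-type cells, with a log2 difference of -0.024 ± 0.05 (SE) that did not pass (adjusted p = 0.706, limma). Nars, for asparagine, rose. Its signals were 3646 and 3629.8 in SMRTmRID cells, against 2853 and 2881 in wild-type cells, a log2 difference of 0.34 ± 0.04 (SE, adjusted p = 9.08e-05, limma).

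Probe sets of the same gene gave a check within each array. More than 1 probe set passed the filter for 27 members, and for 22 of these all were lower in SMRTmRID. In the other 5, namely Cebpg, Shmt1, Slc38a2, Eprs and Nars, probe sets pointed both ways. These 5 include each gene that rose. For Eprs another probe set had signals of 1442 and 1432 in SMRTmRID cells, against 858 and 815 in wild-type cells, a log2 difference of 0.77, while the other 2 above the filter were near 0. With the mean over its probe sets Eprs was called higher, at 0.37 (adjusted p = 0.00446, limma). The mean over the probe sets of Nars left a smaller rise of 0.12. The second probe set of Nars had signals of 3033 and 3006 in SMRTmRID cells, against 3339 and 3104 in wild-type cells, a log2 difference of -0.092. Which transcripts these probe sets detect was not analysed here.

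**Figure D2:**
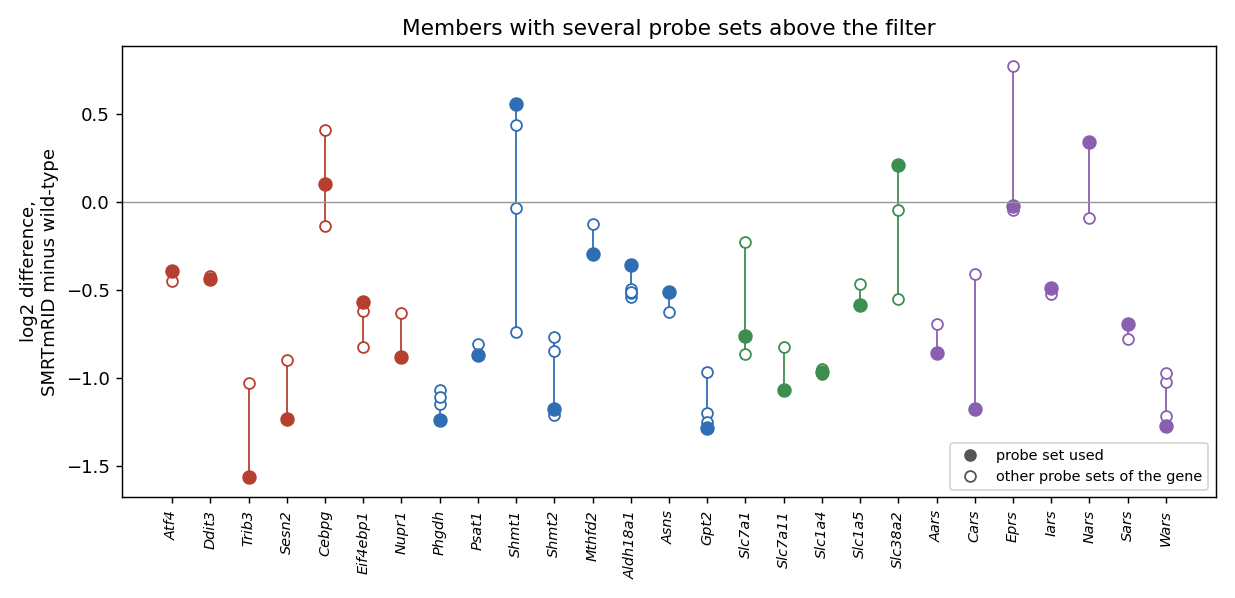
Each column is 1 member with more than 1 probe set past the filter, and each point the log2 difference, SMRTmRID minus wild-type, of 1 probe set; the filled point is the probe set used and colours mark the 4 groups. The points of 22 genes lie all below 0, and those of Cebpg, Shmt1, Slc38a2, Eprs and Nars lie on both sides.

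Chromosomes differed between the genotypes as wholes, and members were set against that. Taking all tested genes of a chromosome, the median log2 difference was -0.54 on chromosome 7 (814 genes), -0.29 on chromosome 8 (617 genes) and 0.36 on chromosome 18 (283 genes). On chromosome 7, 61.4% of the tested genes were called lower. It carries 6 members, Atf5, Cars, Nupr1, Ppp1r15a, Slc1a5 and Cebpg, of which 5 fell. With each chromosome's median taken out and the fit repeated, an alternative chosen after seeing the data, Ppp1r15a and Slc1a5 no longer passed, with log2 differences of -0.12 (adjusted p = 0.154) and -0.042 (adjusted p = 0.629). Cebpg then stood above its chromosome, at 0.64 (adjusted p = 2.41e-04). Smaller falls were left for Atf5 (-0.74), Cars (-0.63) and Nupr1 (-0.34) on chromosome 7, all still called. On chromosome 8, smaller falls were left for Slc7a5 (-1.27), Gpt2 (-0.99), Aars (-0.56) and Eif4ebp1 (-0.28), also all still called. The rise of Nars, on chromosome 18, was no longer seen, at -0.019 (adjusted p = 0.725).

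The ATF4 regulators, of which 4 lie on chromosome 7, kept less of their median in this way, at -0.34, with 8 of 10 still lower. Among all 11057 tested genes, 6877 were called in either direction in that fit. The other groups kept medians of -0.62 for the enzymes, -0.85 for the transporters and -0.61 for the synthetases. Of all 43 members, 39 lay below the median of their chromosome, which by definition splits that chromosome's tested genes evenly. The 33 members on chromosomes other than 7 and 8 had a median log2 difference of -0.70, and 28 of them fell. On those chromosomes with at least 100 tested genes, the share called lower ran from 15% (X) to 43.4% (chromosome 19). Trib3 and Chac1, on chromosome 2, and Phgdh, on chromosome 3, fell by more than 1 on chromosomes whose medians were 0.017 and 0.16. Slc7a3 lies on the X chromosome, whose median was 0.35.

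**Figure D3:**
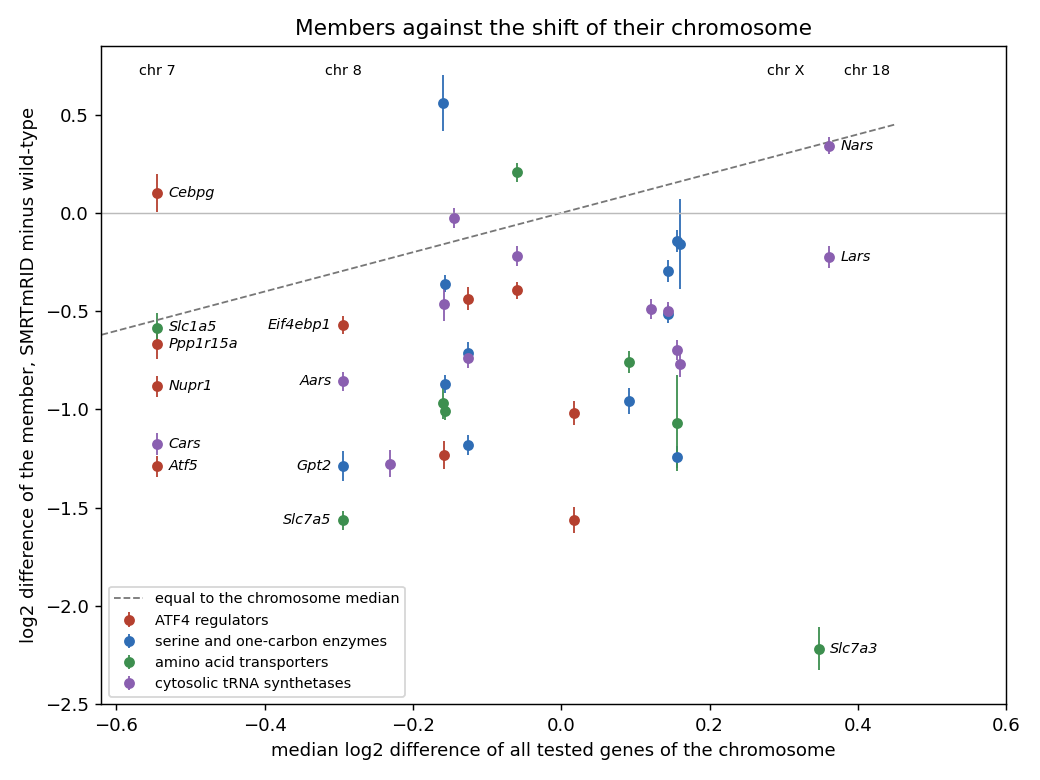
Each point is 1 member, placed by its chromosome's median log2 difference over the genes tested (horizontal) and by its own log2 difference with limma's SE (vertical), both SMRTmRID minus wild-type; the dashed line marks equality, and members on chromosomes 7, 8, 18 and X are named. Slc1a5, Ppp1r15a and Nars lie near the line, and 39 of the 43 members lie below it.

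Genes upstream of ATF4 were split. Of 13 tested genes for eIF2 kinases, eIF2, its exchange factor and their regulators, 6 rose and 5 fell, with a median log2 difference of 0.10. Of all tested genes 30.3% were called higher and 35.0% lower. The 4 kinase genes, each answering another stress, were all called higher. Eif2ak4, the kinase that senses uncharged tRNA, had a log2 difference of 0.43 ± 0.13 (SE, adjusted p = 0.0158, limma). Eif2ak3, the kinase of the unfolded protein response, had 0.37, the haem-regulated kinase gene Eif2ak1 0.25, and Eif2ak2, which interferon induces and double-stranded RNA activates, 1.60. Gcn1, which helps Eif2ak4 sense tRNA, fell, with a log2 difference of -0.68, while Impact (0.38) and the eIF2 subunit gene Eif2s2 (0.33) rose. Impact lies on chromosome 18, whose median over all tested genes was close to it, at 0.36. The subunit genes of eIF2B, the exchange factor that phosphorylated eIF2 blocks, were lower for Eif2b2 (-1.30), Eif2b5 (-1.16), Eif2b4 (-0.56) and Eif2b3 (-0.50), and Eif2b1 did not pass (-0.046). Phosphorylation of eIF2 and the ATF4 protein were not measured on these arrays.

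Further ATF4 targets and partners were lower in 9 of 14 tested genes and higher in 2, with a median log2 difference of -0.29. The shares of all tested genes were 35.0% lower and 30.3% higher. Slc6a9, a glycine carrier, fell with signals of 501 and 487 in SMRTmRID cells, against 1167 and 1242 in wild-type cells, a log2 difference of -1.26 ± 0.06 (SE). The lipoprotein receptor gene Vldlr had a log2 difference of -1.13 and Stc2, a secreted glycoprotein induced by stress, of -1.09. The angiogenic factor gene Vegfa, which low oxygen also induces, rose by 1.36, and Cebpb by 0.15. Atf3, another stress-induced factor, had a log2 difference of -0.47 ± 0.21 (SE) that did not pass (adjusted p = 0.0711, limma).

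The fall of synthetase genes was not limited to those on the member list. For comparison, 35.0% of all tested genes were called lower. Of 9 other tested genes of cytosolic charging, 7 fell and 2 missed the threshold, with a median log2 difference of -0.42. Farsa, a subunit for phenylalanine, had the greatest change at -1.11 ± 0.07 (SE), and Aimp2 and Aimp1, scaffold proteins of the multisynthetase complex, had log2 differences of -0.93 and -0.67. Rars, for arginine, and Hars, for histidine, were these 2, at 0.056 and 0.049. Of 15 tested mitochondrial synthetase genes, 9 fell and 6 missed the threshold, with a median of -0.48, close to the -0.50 of the cytosolic members. With chromosome medians taken out, the median was -0.35 for the mitochondrial genes, -0.36 for the other cytosolic genes and -0.61 for the cytosolic members. Ears2, for glutamate and on chromosome 7, led the mitochondrial genes at -0.89 ± 0.17 (SE), and Iars2, for isoleucine, did not pass at 0.077. The difference between these lists was not tested.

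Most genes of growth and replication fell as well. Myc, a transcription factor that also drives serine synthesis and synthetase genes, had signals of 743 and 758 in SMRTmRID cells, against 884 and 986 in wild-type cells, a log2 difference of -0.31 ± 0.07 (SE, adjusted p = 0.00254, limma). Of 14 tested genes of the Myc and proliferation list 11 fell and 2 rose, with a median of -0.62. Among all tested genes 35.0% were called lower and 30.3% higher. The replication genes Mcm5 and Rrm2 had the greatest falls, with log2 differences of -1.61 and -1.56, while the proliferation antigen gene Mki67 rose by 0.64. Their part in the members' result was not tested.

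**Figure D4:**
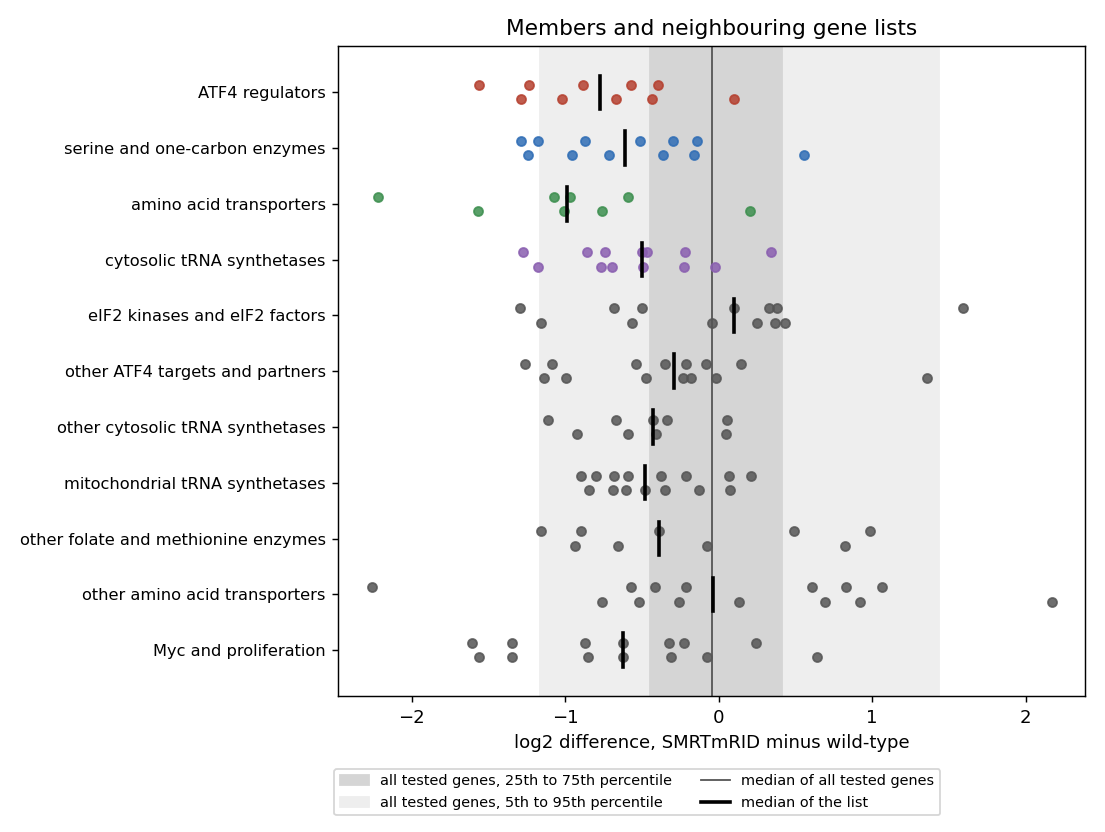
Each point is the log2 difference, SMRTmRID minus wild-type, of 1 tested gene; the 4 groups of members are in colour and the neighbouring lists in grey, black bars are list medians, and the shaded bands run between the 25th and 75th and between the 5th and 95th percentiles of all tested genes. The medians of the member groups lie between -0.99 and -0.50, and that of the eIF2 genes at 0.10.

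Members with a match and without one overlapped in range. The 11 measured members with a match had log2 differences between -1.56 (Trib3) and -0.22 (Tars), with a median of -0.86. The 22 members whose windows lack it ranged from -1.29 (Atf5) to 0.56 (Shmt1), with a median of -0.70, and 17 of them fell. Members with no window in the table were Eif4ebp1, Cth, Slc7a3, Slc7a5, Slc1a5, Cars, Lars, Nars, Vars and Wars. Over all tested genes with a window, the 233 genes with a match had a median log2 difference of -0.076, and 36.1% were called lower, against -0.057 and 35.7% for the 8720 genes without one. A match in letters is not a bound site, and none of these comparisons was tested.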

How the data were processed

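The samples were 4 single-colour Affymetrix arrays, grouped as SMRTmRID and wild-type by the genotype in their titles. Each probe set has 1 deposited intensity, made with MAS5 per the submitters' processing notes. The values are on a linear scale, with the same trimmed mean on all 4 arrays. The MAS5 version and detection calls were not given in the sources used here. Of 45101 probe sets 64 controls were left out, 34945 had 1 gene symbol in GEO's platform annotation, 932 had several and 9160 had none. Names were updated through gene IDs (34741 matched GRCm38.p6). Genes whose mean signal exceeded the median of all values, 35.1, were compared on log2(signal + 16) in limma 3.58.1 under R 4.3.3 by linear models with moderated variances and a variance trend (two-sided, Benjamini-Hochberg adjustment over 11057 genes). The members, the lists and the tests were chosen with earlier results of these arrays known. Members that were called with a difference of at least 1, that rose, or that led their group are given on every array, as is Atf4. Neighbouring lists are given by counts and leading genes, mostly as log2 differences, and other genes named there were chosen after their values were seen. Promoter windows were to be printed for up to 4 members with a match, and were shortened to their upstream part or to 30 bases around the match, and 1 member's stretches are not reported here. The labels state no pairing of arrays by replicate number. Within-genotype deviations shared by arrays of 1 number had a correlation of 0.012, which does not settle whether those arrays were processed together. Of the 15 alternatives, 14 were planned. Figures used matplotlib 3.10.9.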

Additional observations from a re-analysis of the deposited data

How the results depend on the processing

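Under the 15 alternatives the number of members called lower stayed between 34 and 37 of those tested, and the number of genes called between 5191 and 7420, against 7213. Of the 43 members 32 kept their direction and their side of the threshold throughout. The group medians kept their sign in all 15. The alternatives that shifted them gave the following values. A pseudocount of 64 gave -0.73 for ATF4 regulators, -0.59 for enzymes, -0.81 for transporters and -0.67 for all members, and a pseudocount of 1 gave -0.79 for the regulators. Quantile normalization gave -0.75 for regulators, -0.55 for enzymes, -0.94 for transporters, -0.46 for synthetases and -0.70 for all members, and median centring -0.78 for the regulators. The mean of all probe sets gave -0.71 for regulators and -0.64 for enzymes, and leaving out probe sets of the _x_at and _s_at kind -0.52 for synthetases and -0.70 for all. The enzymes above the 75th percentile of signal, fewer genes, had -0.79. Chromosome centring gave -0.34, -0.85, -0.61 and -0.61 for regulators, transporters, synthetases and all members. Leaving out 1 array gave -0.79 to -0.76, -1.04 to -0.89 and -0.59 to -0.48 for those 3 groups. The reversals were of Cebpg without SMRTmRID replicate 2 (leaving out 1 array gave -0.0060 to 0.21), Cbs without wild-type replicate 1 (-0.36 to 0.043), Slc38a2 with the mean of its probe sets (-0.13), Nars with chromosome centring (-0.019) and Eprs with quantile normalization (0.087), the mean of its probe sets (0.37), chromosome centring (0.12) and without SMRTmRID replicate 1 (-0.067 to 0.019). Beyond the alternatives' own construction, the cause was not tested. The replicate number as a replicate block gave 7420 genes called and changed no member's call. With 2 technical arrays per genotype, genes near the filter, such as Slc7a11 and Cbs, are measured least precisely.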

Other observations

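Other amino acid transporters were split. Of 14 tested genes 6 rose and 6 fell, with a median log2 difference of -0.039. This was near the median of all tested genes, -0.045, of which 35.0% were called lower and 30.3% higher. Slc38a1 and Slc38a4, importers of the same family as Slc38a2, moved in opposite directions. Slc38a1 had signals of 205 and 175 in SMRTmRID cells, against 989 and 940.2 in wild-type cells, a log2 difference of -2.26 ± 0.09 (SE, adjusted p = 3.89e-08, limma). Slc38a4 had signals of 273 and 262 in SMRTmRID cells, against 50.0 and 44.2 in wild-type cells, a log2 difference of 2.17 ± 0.14 (SE, adjusted p = 1.17e-06, limma). Slc7a2, a carrier of arginine and lysine like the 2 that fell among the members, rose, with signals of 1398 and 1279 in SMRTmRID cells, against 599 and 664 in wild-type cells, with a log2 difference of 1.06 ± 0.07 (SE).

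Other folate and methionine enzymes fell in 5 of 9 tested genes and rose in 3, with a median log2 difference of -0.39. The share that rose, 33.3%, was near the 30.3% of all tested genes called higher, while 35.0% of all tested genes were called lower. Mthfd1, the cytosolic folate enzyme that takes up formate, had signals of 248 and 273 in SMRTmRID cells, against 585 and 617 in wild-type cells, a log2 difference of -1.16 ± 0.08 (SE, adjusted p = 1.62e-06, limma). Mthfd2l, a mitochondrial relative of Mthfd2, went the other way, with signals of 556 and 482 in SMRTmRID cells, against 262 and 245 in wild-type cells, with a log2 difference of 0.99 ± 0.09 (SE, adjusted p = 1.09e-05, limma). The methionine cycle genes Mtr and Ahcy had log2 differences of -0.94 and -0.90.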
